A study of Caenorhabditis elegans with 16 samples.

Results

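The aspartyl proteases described here are the products of 10 Caenorhabditis elegans genes, asp-1, asp-2, asp-3, asp-4, asp-5, asp-6, asp-8, asp-10, asp-12 and asp-14, measured in whole worms by RNA sequencing. They were chosen by name from the 46589 genes of the deposited table. Of these, 9 were found by their own symbol, and asp-10 was found as C15C8.3, which now carries the symbol hrg-7. The deposited annotation assigns 22 genes to the aspartyl protease family, 18 on chromosome V, 3 on chromosome X and 1 on chromosome IV, and the 10 genes comprise 7 of those on V and all 3 on X. All 10 had a mean of at least 1 FPKM and were tested in every comparison.

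Aspartyl proteases of the pepsin and cathepsin D type are made as inactive precursors and become active at acid pH. In C. elegans they take part in protein breakdown in the gut lumen and in lysosomes, and the worm intestine is both the digestive organ and a tissue rich in lysosome-related organelles. asp-1 is known for expression in the intestine. asp-3 and asp-4 encode cathepsin D-like proteases known for their part in necrotic death of neurons, and ASP-4 is a lysosomal protease. hrg-7 (asp-10) encodes a cathepsin-like protein that the intestine secretes and that signals about haem between tissues. RNA from whole worms carries no measure of tissue or organelle, so the placing of these genes in intestine and lysosome is background and could not be checked here.

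The study sequenced polyadenylated RNA from wild-type N2 worms as 4 libraries of each of 4 groups, with a separate plate for each library. The groups are called EMBRYO CNT and EMBRYO TM for worms handled as embryos, and L4 CNT and L4 TM for worms handled as L4 larvae. Tunicamycin (TM), a blocker of N-linked glycosylation that causes endoplasmic reticulum stress, was given at 1.25 μg/ml for 24 h in S medium, to embryos obtained by bleaching or to L4 larvae, and all worms are described as Day 1 adults at collection. The CNT groups are the controls of the same stage, and the labels name no vehicle. The worms of the EMBRYO groups grew on plates from the first larval stages after treatment while those of the L4 groups had already reached the last larval stage, so stage at treatment and time since treatment cannot be told apart, and the authors' own headings call the EMBRYO groups L1 and the L4 groups D1. If these headings name the stage at collection, the EMBRYO and L4 groups also differed in that stage, which then cannot be told apart from the stage at treatment in any value set between them.

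Reads on genes, recovered from the deposited values, ranged from 12361026 to 47193068 per library. L4 TM replicate 4 had the most reads and the fewest detected genes, 15377 against 17539 to 21833 in the rest. Genes with exactly 1 read made up 0.702% of those it detected, and 8.97% to 10.9% in each of the rest. Why this library differed was not tested, so its recovered reads may not measure depth as in the rest. The summed level of 10 epidermis markers was 332 FPKM in L4 TM replicate 4 and 522 FPKM in L4 CNT replicate 2, and from 999.7 to 1543 FPKM in every other library. EMBRYO TM replicate 4 had the lowest intestine marker sum of its group, at 1188 FPKM against 1487 to 1569 FPKM. Its muscle marker sum was lowest too, at 2152 FPKM against 2644 to 2791 FPKM, and its germline marker sum, at 979 FPKM against 1315 to 1574 FPKM. The neuron marker sum was close to the rest of the group, at 330.8 FPKM against 332.7 to 353.9 FPKM. The size of these gaps depends on the library size within the FPKM values, and the gaps were not taken as a share of reads on genes. hsp-4, the endoplasmic reticulum chaperone BiP induced by TM, had a log2 difference of 0.93 in EMBRYO TM and 0.56 in L4 TM, both past the limma adjusted p alone.

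Levels are in FPKM, a read count corrected for the length of the gene and a library size used by the authors, so that genes can be compared. That size was not the reads on genes alone. asp-8, for example, was at 43.8 FPKM and 0.00643% of reads on genes in EMBRYO TM replicate 1. In EMBRYO TM replicate 4 it was at 38.9 FPKM and 0.00671%. Differences are on the log2(FPKM + 1) scale, tested with limma. A gene was called higher or lower past both thresholds at a log2 difference beyond 1 and a Benjamini-Hochberg adjusted p under 0.05 over all genes tested. The pseudocount understates the differences of asp-8, asp-10 and asp-12, the members of lowest level.

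asp-1 and asp-6 were the most abundant of the 10 transcripts in every library except L4 TM replicate 4, where asp-3 was above asp-6. In the 8 EMBRYO libraries asp-1 ranked between 1 and 3 among all genes by FPKM, and asp-6 between 2 and 5. In L4 CNT their ranks were 5 to 9 and 17 to 20, and in L4 TM 33 to 51 and 110 to 118. asp-3 and asp-5 followed, with group means between 554 and 3752 FPKM. asp-2, asp-4 and asp-14 had group means from 29.7 to 391 FPKM, and asp-8, asp-10 and asp-12 from 3.39 to 118 FPKM. Across the 16 libraries the ratio of the highest to the lowest value was 24.4 for asp-10, between 11.2 and 13.8 for asp-6, asp-8, asp-12 and asp-14, and 2.50 for asp-4, the least variable.

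**Figure D1:**
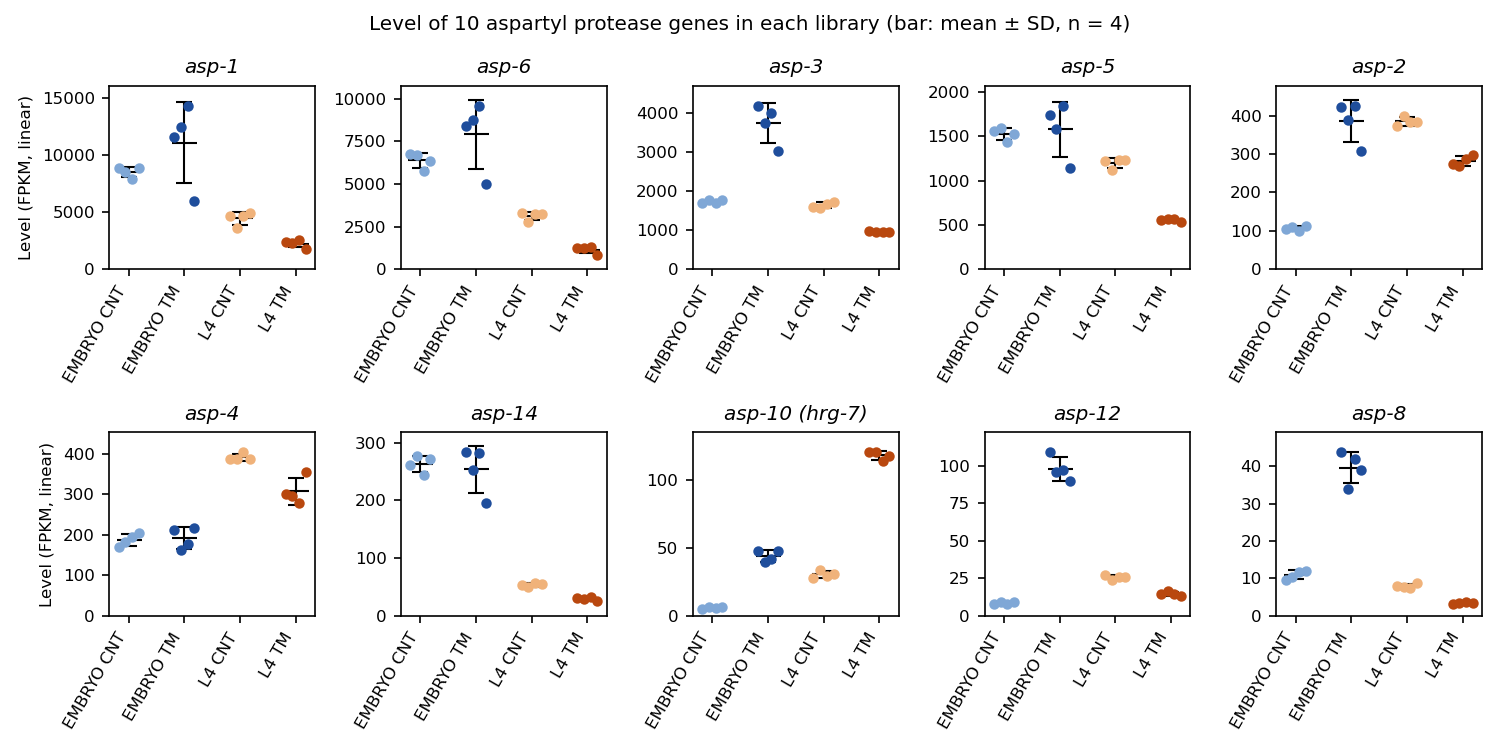
FPKM of the 10 genes in each of the 16 libraries, on a linear axis per gene, by group, with 1 point per library and bars for the group mean ± SD (n = 4). asp-10 separates all 4 groups, from 4.93 to 6.23 FPKM in EMBRYO CNT up to 114 to 120 FPKM in L4 TM, while asp-4 stays between 162 and 404 FPKM.

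The 10 genes together took 2.73% to 2.94% of the reads on genes in EMBRYO CNT and 2.57% to 3.78% after TM. In L4 CNT their share was 1.41% to 1.57%, and in L4 TM 0.697% to 0.781%. Their summed level in EMBRYO worms was 17310.3 to 19381 FPKM without TM and 16079 to 30836 FPKM with it. In L4 worms it was 9939 to 11993 FPKM without TM and 4908 to 6067 FPKM with it. The lowest EMBRYO TM sum was that of replicate 4, and the other 3 libraries of that group were all above EMBRYO CNT. asp-1 and asp-6 made up 79.5% ± 0.698 of the sum in EMBRYO CNT, 74.2% ± 4.21 with TM, 66.8% ± 2.002 in L4 CNT and 59.6% ± 4.37 with TM (SD, n = 4 in each).

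**Figure D2:**
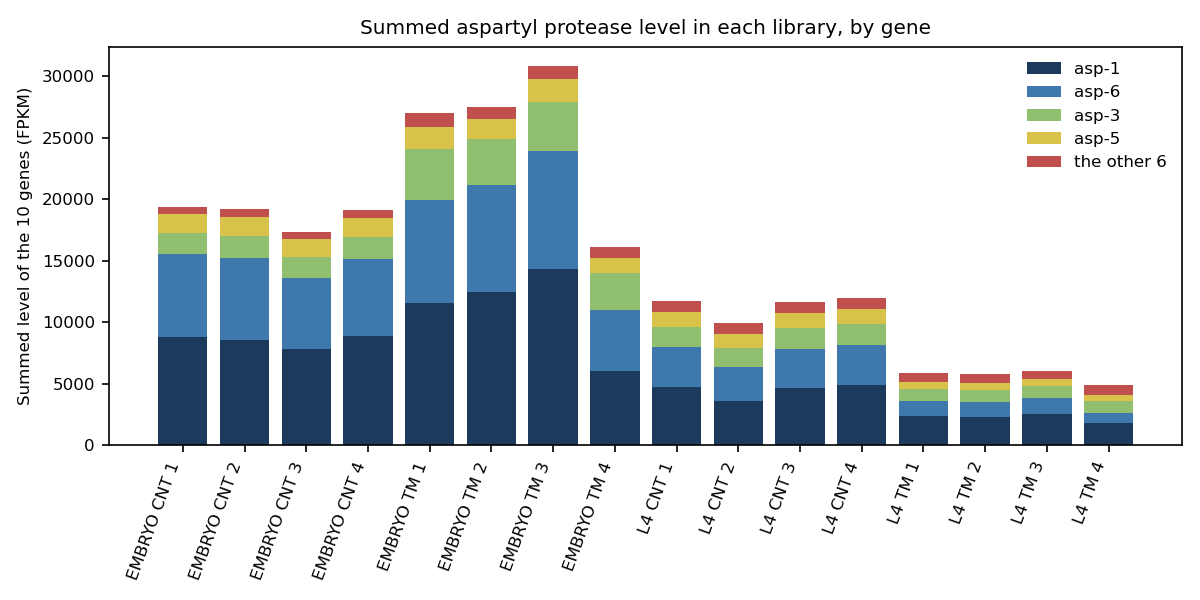
Summed FPKM of the 10 genes in each library, with bars from 0 split into asp-1, asp-6, asp-3, asp-5 and the other 6 genes together. asp-1 and asp-6 fill most of every bar, the L4 TM bars end between 4908 and 6067 FPKM, and EMBRYO TM replicate 4, at 16079 FPKM, lies below the EMBRYO CNT bars.

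Treatment of embryos was followed by higher levels of 5 of the 10 genes, asp-12, asp-10, asp-2, asp-8 and asp-3, and by lower levels of none past both thresholds. Of all 14930 genes tested, 5.06% were higher past both thresholds and 7.61% lower, and 25.7% were higher and 27% lower by adjusted p alone, by which the same 5 members were called. The median log2 difference of the 10 genes was 0.71, against -0.03 for all genes. No member was lower at an unadjusted p under 0.05 by limma, and with limma's voom 4 were higher and none lower past both thresholds, with 1 lower by adjusted p. The groups did not overlap for these 5 genes, as for 48.5% of all genes tested. In bulk RNA, more or fewer cells of a type and more or less RNA per cell cannot be told apart.

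asp-12 (F21F8.4, chromosome V, 8269254 to 8272058 on the plus strand, positions here being those of the deposited table) had the largest difference. Its EMBRYO CNT libraries were at 8.07, 9.36, 7.90 and 8.96 FPKM and its EMBRYO TM libraries at 109, 95.4, 97.0 and 90.0 FPKM. Every treated library was thus far above every control, with 172 to 228 reads in the controls and 1615 to 2225 in the treated. The means, 8.57 ± 0.702 and 97.8 ± 8.003 FPKM (SD, n = 4), differed 11.4-fold, a log2 difference of 3.37 (standard error 0.09, limma adjusted p = 2.96e-08).

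asp-10 (C15C8.3, chromosome V, 12742039 to 12744170, plus strand), the secreted haem-signalling protein, was at 4.93, 6.23, 5.41 and 6.08 FPKM in EMBRYO CNT and at 47.7, 39.4, 41.7 and 47.7 FPKM in EMBRYO TM. Treated and control libraries were well apart, and the means differed 7.79-fold, a log2 difference of 2.76 (standard error 0.10, limma adjusted p = 1.45e-07). asp-2 (T18H9.2, chromosome V, 9199680 to 9205128, plus strand) was at 106, 110, 101 and 111 FPKM in EMBRYO CNT and 423, 388, 426 and 309 FPKM in EMBRYO TM, a 3.61-fold rise of its mean. Replicate 4 was the lowest of the treated libraries and still above all controls. asp-8 (F59D6.3, chromosome V, 3024219 to 3027933, plus strand) was at 9.69, 10.4, 11.8 and 12.1 FPKM in EMBRYO CNT and 43.8, 34.0, 41.8 and 38.9 FPKM in EMBRYO TM, also 3.61-fold higher. The log2 differences were 1.83 for asp-2 (standard error 0.11, limma adjusted p = 2.95e-06) and 1.76 for asp-8 (standard error 0.10, limma adjusted p = 2.44e-06).

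asp-3 (H22K11.1, chromosome X, 6791064 to 6792715, plus strand), 1 of the cathepsin D-like pair, was at 1689, 1766, 1690.0 and 1782 FPKM in EMBRYO CNT and 4199, 3746, 4022 and 3039.9 FPKM in EMBRYO TM. The controls were close together and the treated libraries all higher, with a 2.17-fold difference of the means and a log2 difference of 1.10 (standard error 0.11, limma adjusted p = 6.84e-05). With voom on the recovered reads its log2 difference was 0.93, within the fold change threshold. asp-4 (R12H7.2, chromosome X, 13218977 to 13221469, minus strand), the other, had means of 187 ± 15.1 FPKM in EMBRYO CNT and 192 ± 26.6 FPKM in EMBRYO TM (SD, n = 4), with overlapping libraries. Its log2 difference of 0.03 did not pass the test (limma adjusted p = 0.858). The ratio of asp-3 to asp-4 was between 8.73 and 10.0 in the EMBRYO CNT libraries and between 14.03 and 23.2 with TM.

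The 2 most abundant genes had wide treated groups. asp-1 (Y39B6A.20, chromosome V, 19049458 to 19050755, minus strand) was at 8823, 8530.1, 7857 and 8847 FPKM in EMBRYO CNT and 11534, 12425, 14309 and 6008 FPKM in EMBRYO TM. Replicates 1 to 3 of the treated group were above all controls and replicate 4 below them. As a share of reads on genes, asp-1 was at 1.58% to 1.78% in replicates 1 to 3 and 0.968% in replicate 4. In EMBRYO CNT it was at 1.28% to 1.38%. The log2 difference was 0.31 (limma adjusted p = 0.314), and without EMBRYO TM replicate 4 it was 0.58 (limma adjusted p = 9.38e-04). asp-6 (F21F8.7, chromosome V, 8267546 to 8268937, minus strand) had the same arrangement, with 8384 to 9595 FPKM in replicates 1 to 3 and 4989 FPKM in replicate 4, against 5762 to 6755 FPKM in EMBRYO CNT. Its log2 difference was 0.27 with this library (limma adjusted p = 0.271) and 0.48 without it (limma adjusted p = 0.00166). With any other single library left out, asp-6 was between 0.17 and 0.30 (limma adjusted p between 0.303 and 0.514). asp-5 and asp-14 had log2 differences of 0.02 (limma adjusted p = 0.901) and -0.07 (limma adjusted p = 0.662). Replicate 4 was the lowest treated library for asp-5 and asp-14 too, at 1144 and 196.1 FPKM. Without it asp-5 was at 0.17, asp-14 at 0.05 and asp-4 at -0.04, none past the adjusted p. Without it the 5 calls past both thresholds remained, with log2 differences of 3.41 for asp-12, 2.72 for asp-10, 1.94 for asp-2, 1.77 for asp-8 and 1.202 for asp-3.

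**Figure D3:**
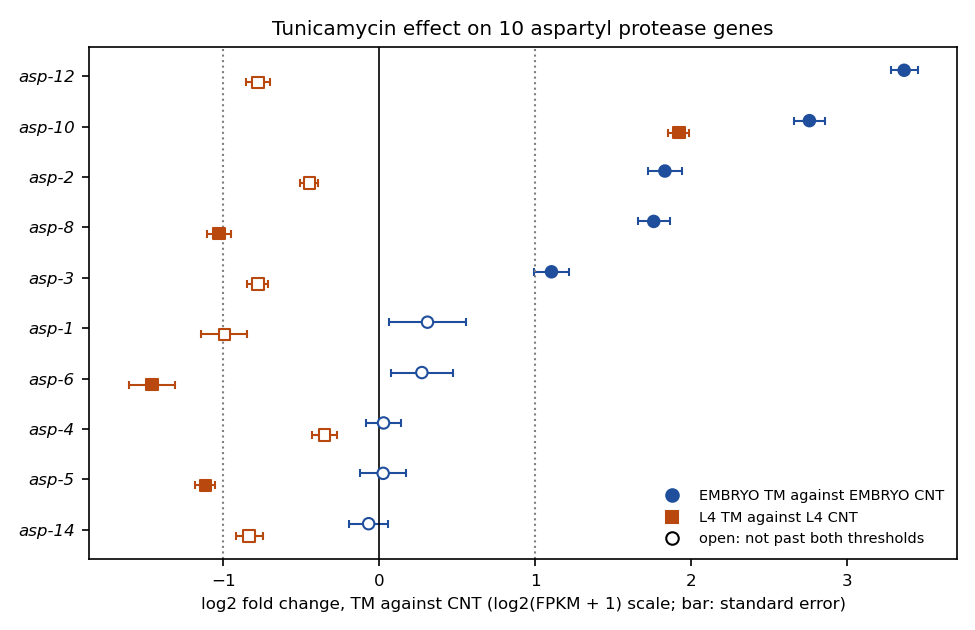
Log2 difference (TM minus CNT, on log2(FPKM + 1), with standard error) of each of the 10 genes in the EMBRYO and L4 comparisons, with filled symbols for genes past both thresholds and open symbols for the others. asp-10 is high in both comparisons (2.76 and 1.92), and asp-12 is at 3.37 in EMBRYO and -0.78 in L4.

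Intestine markers tended to be higher in the EMBRYO comparison, where 5 of the 10 genes were called higher and the other 5 were not. Of 16 markers, 6 were higher past both thresholds and none lower by limma or by voom, with 13 higher and 2 lower at limma's unadjusted p under 0.05 and a median log2 difference of 0.89. Their summed level ranged from 682 to 715 FPKM in the controls and from 1188 to 1569 FPKM in the treated libraries, and none of the 16 was at 0 in any library. elt-2, the main intestinal GATA factor, had a log2 difference of 0.50 and elt-7, its relative, of -0.24, both past the adjusted p alone. Muscle markers had 3 of 10 lower (myo-3, unc-15 and unc-54), neuron markers 2 of 10 lower (egl-3 and egl-21) and germline markers 2 of 10 higher (glh-1 and gld-1). Taken relative to the mean log2 level of the intestine markers, a scale added once values were known, which lowers the median of all genes by 0.90, asp-12 and asp-10 remained higher past both thresholds, at 2.38 and 1.80. On that scale asp-2 was at 0.79, asp-8 at 0.77 and asp-3 at 0.06, and asp-4, asp-5 and asp-14 were lower past both thresholds, at -1.01, -1.02 and -1.11. asp-1 and asp-6, at -0.74 and -0.77, were lower there by adjusted p alone. The part of the marker shift in the levels of these genes was not tested further.

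Treatment at the L4 stage went with lower levels of 9 of the 10 genes by limma's adjusted p and a higher level of asp-10. Past both thresholds, 4 were called, as 3.79% of all genes were: asp-6, asp-5 and asp-8 were lower and asp-10 was higher. Of all 11964 genes tested, 3.2% were lower and 0.585% higher past both thresholds, while by adjusted p alone 15.8% were lower and 20.3% higher. With voom, 4 members were lower and 1 higher past both thresholds. The median log2 difference of the 10 genes was -0.81, against 0.05 for all genes. The libraries of L4 TM and L4 CNT did not overlap for any of the 10 genes, which held for 36.8% of the genes tested.

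asp-6 was at 3297, 2753, 3211 and 3253 FPKM in L4 CNT and at 1239, 1253, 1283 and 833 FPKM in L4 TM. All treated libraries were well under the controls, and the lowest in each group were L4 CNT replicate 2 and L4 TM replicate 4, the libraries with the lowest epidermis marker sums. The mean was 2.72-fold lower, a log2 difference of -1.46 (standard error 0.15, limma adjusted p = 2.06e-04), which was -1.31 without L4 TM replicate 4 and -1.52 without L4 CNT replicate 2. asp-5 (F21F8.3, chromosome V, 8272375 to 8274047, plus strand) was at 1224, 1118, 1236 and 1233 FPKM in L4 CNT and 550.5, 561, 568 and 535 FPKM in L4 TM. Its treated libraries were close together and its mean was 2.17-fold lower, a log2 difference of -1.12 (standard error 0.06, limma adjusted p = 1.02e-05).

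asp-8 was at 8.06, 7.81, 7.31 and 8.65 FPKM in L4 CNT and 3.20, 3.34, 3.55 and 3.47 FPKM in L4 TM, from 146 to 302 and 90 to 240 reads. The groups were apart, with a log2 difference of -1.03 (standard error 0.08, limma adjusted p = 3.83e-05). This lay within the fold change threshold without L4 CNT replicate 4, at -0.99, and with a pseudocount of 5, at -0.63. asp-1 was at 4697, 3601, 4642 and 4881 FPKM in L4 CNT and 2379, 2267, 2529 and 1777 FPKM in L4 TM. Its mean was 1.99-fold lower, and its log2 difference of -0.995, just inside the fold change threshold, passed the adjusted p alone (standard error 0.15, limma adjusted p = 0.00123). It passed both thresholds under TPM rescaling (-1.01), median-ratio rescaling (-1.03) and voom (-1.04), and when L4 CNT replicate 2 (-1.09) or replicate 1 (-1.03), 2 (-1.01) or 3 (-1.06) of the treated group was left out. Leaving out L4 TM replicate 4 gave -0.89.

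The other 5 genes with lower levels passed the adjusted p alone. Their log2 differences were -0.84 for asp-14, -0.78 for asp-12, -0.78 for asp-3, -0.45 for asp-2 and -0.35 for asp-4, with limma adjusted p between 8.00e-05 and 0.00978. Without L4 TM replicate 4 they were -0.76, -0.73, -0.78, -0.48 and -0.42 in the same order, and without L4 CNT replicate 2 they were -0.87, -0.81, -0.80, -0.43 and -0.36, all past the adjusted p. asp-12 was between 24.0 and 27.1 FPKM in L4 CNT and between 13.2 and 16.3 FPKM in L4 TM. asp-3 was between 1565 and 1735 FPKM in L4 CNT and between 948 and 971 FPKM in L4 TM.

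asp-10 was the exception in L4 worms. It was at 27.7, 33.7, 29.5 and 31.02 FPKM in L4 CNT and 120.5, 120.2, 114 and 118 FPKM in L4 TM. The treated libraries were close together and all above the controls, with a 3.87-fold difference of the means and a log2 difference of 1.92 (standard error 0.07, limma adjusted p = 8.52e-07). No other member was called higher in both TM comparisons. Leaving out L4 TM replicate 4 or L4 CNT replicate 2 gave log2 differences of 1.92 and 1.97 for asp-10, -1.10 and -1.15 for asp-5, and -1.04 each time for asp-8.

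In L4 worms the intestine markers did not move with the treatment past both thresholds. By limma none of 16 was higher and none lower, with 2 higher and 6 lower at an unadjusted p under 0.05, and 1 lower by voom. Their median was -0.14, and their summed level was 1287 to 1366 FPKM in L4 CNT and 1168 to 1341 FPKM in L4 TM. elt-7 had a log2 difference of -0.98 and elt-2 of -0.28, both past the adjusted p alone (limma adjusted p = 3.52e-04 and 0.0281). Of the other marker lists, muscle, germline, neuron, epidermis and pharynx, none had a gene past both thresholds by limma, and by voom muscle, neuron and epidermis each had 1 lower. At an unadjusted p under 0.05, germline markers had 10 of 10 higher and neuron markers 6 of 8 lower. Relative to the intestine markers, asp-6 alone was still lower past both thresholds, asp-5 was at -0.93 and asp-8 at -0.87. asp-4 no longer passed the adjusted p on that scale, at -0.17 (limma adjusted p = 0.131).

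The difference between the TM effects at the 2 stages was tested directly, as the EMBRYO effect minus the L4 effect over all 16 libraries. It was above 0 past both thresholds for 7 of the 10 genes and below for none, where 6.5% of the 13856 genes tested were above and 4.22% below. By adjusted p alone it was above 0 for 9 of the 10 genes, where 14.8% of all genes were. By limma none of the 10 was below at an unadjusted p under 0.05, and none by voom. asp-12 differed most, by 4.15 (standard error 0.11, limma adjusted p = 7.51e-13). Next came asp-8 at 2.79, asp-2 at 2.28, asp-3 at 1.88, asp-6 at 1.73, asp-1 at 1.30 and asp-5 at 1.14, with limma adjusted p between 2.43e-10 and 0.00436. asp-12, asp-8, asp-2 and asp-3 were higher after treatment of embryos and lower after treatment at L4 by adjusted p in each comparison.

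asp-10 and asp-14 differed by 0.84 and 0.77, past the adjusted p alone, and asp-4 by 0.38 (limma adjusted p = 0.0585). Without L4 TM replicate 4 the difference of asp-4 was 0.45 (limma adjusted p = 0.0186). With each of the 3 libraries that stood apart left out in turn, the 7 calls past both thresholds were kept. asp-1 then ranged from 1.197 to 1.57, the highest without EMBRYO TM replicate 4, and asp-6 from 1.58 to 1.94.

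Of the intestine markers, 9 of 16 differed between stages past both thresholds. Relative to them, a scale that moves the median of all genes by -1.11, asp-12, asp-8 and asp-2 remained, while asp-3 was at 0.65, asp-6 at 0.50, asp-1 at 0.07 and asp-5 at -0.09. asp-4, asp-14 and asp-10 turned to -0.85, -0.46 and -0.30, past the adjusted p in the other direction (limma adjusted p = 9.07e-05, 0.00664 and 0.0357).

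The control groups differed as well. In EMBRYO CNT relative to L4 CNT, asp-14 and asp-6 were higher past both thresholds and asp-10, asp-2, asp-12 and asp-4 lower, where 26.1% of 14221 genes tested were higher and 14.5% lower. In either direction 6 of the 10 passed both thresholds, as did 40.6% of all genes. By adjusted p alone 5 were higher and 4 lower, where 43.2% and 40.1% of all genes were. The controls did not overlap for 9 of the 10, nor for 78.4% of all genes. These controls also serve the TM comparisons, so the values are side by side and are not independent of those above. asp-14 (K10C2.3, chromosome X, 6444185 to 6446738, minus strand) was at 261, 276, 245 and 272 FPKM in EMBRYO CNT and 53.7, 49.3, 56.1 and 55.1 FPKM in L4 CNT. Its groups were far apart, with a 4.92-fold difference and a log2 difference of 2.28 (standard error 0.07, limma adjusted p = 3.37e-09). In L4 TM it was between 25.2 and 32.9 FPKM, the lowest of the 4 groups.

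asp-6 was 2.04-fold higher in EMBRYO CNT, a log2 difference of 1.03 (limma adjusted p = 4.69e-06). This lay within the fold change threshold without L4 CNT replicate 2, at 0.97, and under median-ratio rescaling, at 0.88. asp-10 was 5.38-fold, asp-2 3.60-fold, asp-12 3.01-fold and asp-4 2.09-fold lower, with log2 differences of -2.24, -1.84, -1.49 and -1.06. asp-4 was within the threshold under TPM rescaling (-0.87) and voom (-0.84). asp-1, asp-8 and asp-5 passed the adjusted p alone at 0.94, 0.42 and 0.34, and asp-1 passed both thresholds under TPM rescaling (1.14) and voom (1.17). Without L4 CNT replicate 2 the calls of asp-14, asp-10, asp-2, asp-12 and asp-4 were kept, at 2.24, -2.19, -1.82, -1.52 and -1.07. asp-3 was close in the 2 groups, at 1732 ± 49.2 and 1644 ± 78.04 FPKM (SD, n = 4), with a log2 difference of 0.08 (limma adjusted p = 0.342).

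Tissue markers differed between the controls too. The summed intestine markers were at 682 to 715 FPKM in EMBRYO CNT and 1287 to 1366 FPKM in L4 CNT, and those of the germline at 637 to 917 and 1531 to 1656 FPKM. Neuron markers summed to 617 to 667 and 266 to 321 FPKM, and muscle markers to 4068 to 4369 and 2307 to 2592 FPKM. Relative to the intestine markers, which moves the median of all genes by 0.71, asp-12 (-0.76) and asp-4 (-0.29) were no longer past both thresholds, while asp-1 (1.72), asp-5 (1.1205) and asp-8 (1.116) were. asp-14, asp-6, asp-10 and asp-2 kept their calls. The part of these marker differences in the levels of the 10 genes was not tested further.

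asp-2 in EMBRYO TM, at 309 to 426 FPKM, overlapped L4 CNT, at 374 to 400.3 FPKM. asp-12 and asp-10 in EMBRYO TM were above L4 CNT in every library. The order of the group means was EMBRYO TM, EMBRYO CNT, L4 CNT and L4 TM for asp-1, asp-3, asp-5, asp-6 and asp-8, and among these all 4 groups were apart for asp-8 alone. For asp-1, asp-5 and asp-6 the EMBRYO groups overlapped, and for asp-3 the controls did.

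asp-6, asp-12 and asp-5 lie beside each other on chromosome V, in a stretch of 10509 bases with 6 genes annotated as aspartyl proteases. In order these are F21F8.5, F21F8.6, asp-6, asp-12, asp-5 and asp-11, with the first 3 on the minus strand and the last 3 on the plus strand. asp-12 is separated from asp-6 and from asp-5 by 316 bases on each side. These neighbours had very different levels. In EMBRYO CNT the means were 6383 FPKM for asp-6, 8.57 FPKM for asp-12 and 1526 FPKM for asp-5, and those of the other 3 genes were between 0.827 and 1.13 FPKM.

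The level of asp-12 as a share of that of asp-5 was 0.561% ± 0.0341 in EMBRYO CNT and 6.36% ± 1.10 with TM, and 2.15% ± 0.0514 in L4 CNT and 2.64% ± 0.188 with TM (SD, n = 4). All EMBRYO TM libraries had the higher share, from 5.26% to 7.87%. The ratio of asp-6 to asp-5 was 4.18 ± 0.138 in EMBRYO CNT and 4.98 ± 0.501 with TM, and 2.60 ± 0.0990 in L4 CNT and 2.07 ± 0.346 with TM. These genes are related in sequence, and the treatment of reads that match more than 1 gene was not given in the sources used here, so the split of reads among them is uncertain.

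**Figure D4:**
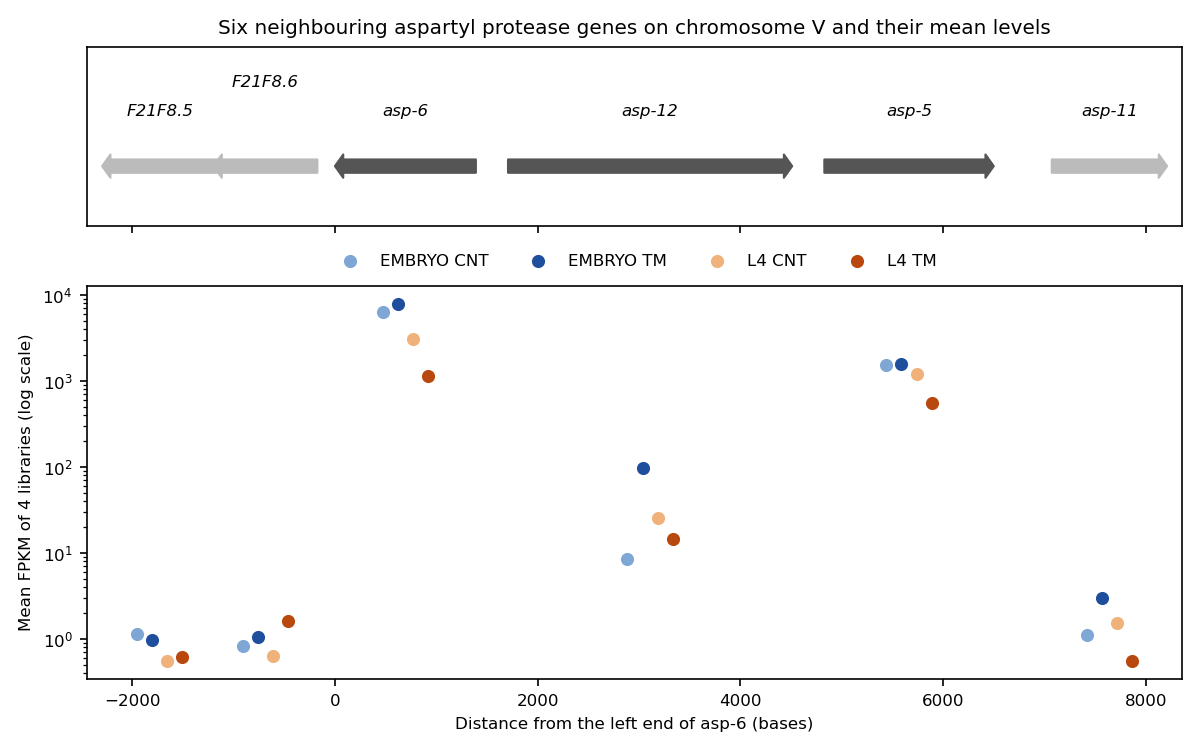
The 6 neighbouring genes on chromosome V drawn to scale by distance from the left end of asp-6 in bases, with the mean FPKM of each gene in the 4 groups on a log axis. asp-12, between asp-6 and asp-5, is at 8.57 FPKM in EMBRYO CNT and at 97.8 FPKM after TM, while asp-5 is at 1526 and 1577 FPKM.

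The profiles of the 10 genes over the 16 libraries were compared as the root mean square difference between their centred log2(FPKM + 1) values. This is a description over libraries that share their groups, and it carries no test. asp-1 and asp-6 were the closest pair, at 0.238, and asp-10 and asp-14 the farthest, at 2.65. Among 13010 protein-coding genes with a mean of at least 1 FPKM, asp-1 was the second nearest gene to asp-6, after dpy-3 (0.228) and before lpr-4 (0.256), and asp-6 was the fourth nearest to asp-1. The nearest to asp-5 were T23F4.2, catp-7 and T01D3.6, between 0.161 and 0.190, and the nearest member was asp-1, at 0.390.

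The nearest other member to asp-12 was asp-3, at 0.833 and rank 161 among the 13010 genes. asp-2 and asp-4 were each the nearest member to the other, at 0.668, with ranks of 3300 for asp-2 and 7258 for asp-4. The 3 nearest genes to asp-12 were lipl-1 (0.360), nhr-168 (0.368) and msra-1 (0.398). lipl-1, a lysosomal lipase of fasting worms, had group means of 8.33 and 96.9 FPKM in the EMBRYO groups, CNT and then TM, and 33.7 and 9.71 FPKM in the L4 groups, beside 8.57, 97.8, 25.8 and 14.7 FPKM for asp-12. asp-10 was nearest to abhd-3.2 (0.119), pgph-3 (0.379) and C05D12.3 (0.429), and abhd-3.2 had group means of 0.699, 10.0, 6.92 and 27.7 FPKM in the same order. The nearest genes were Y16B4A.2, clec-50 and C01B10.6 for asp-2 (0.148 to 0.163), W02G9.4, irg-7 and lys-7 for asp-3 (0.189 to 0.209), and col-90, asah-1 and W07B8.4 for asp-8 (0.287 to 0.325). lys-7 encodes a lysozyme and asah-1 an acid ceramidase.

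**Figure D5:**
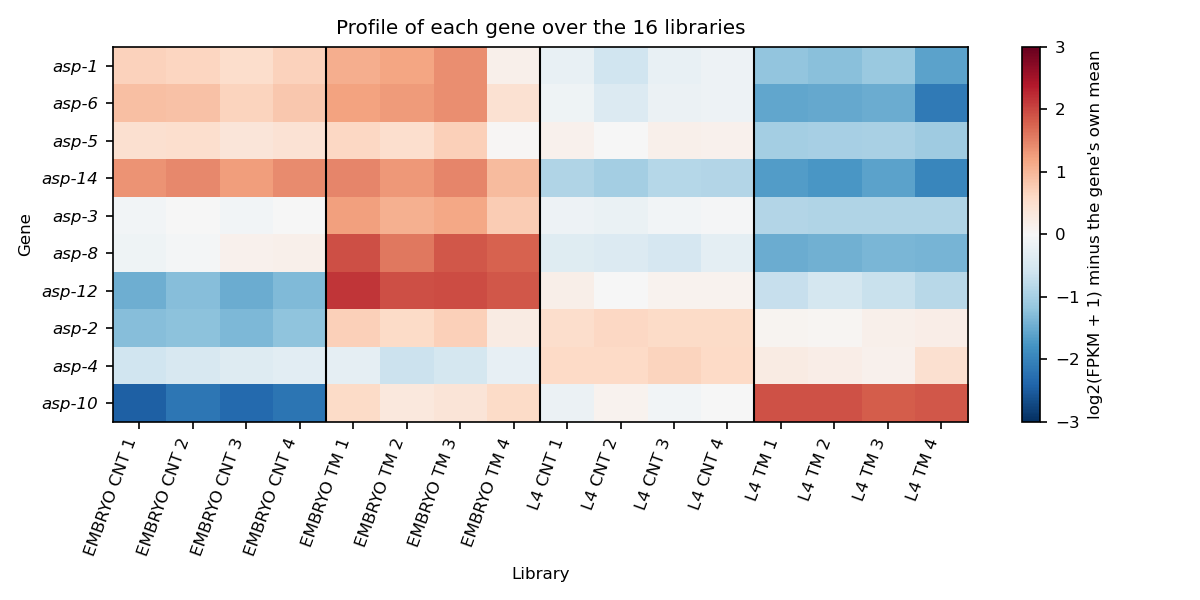
Log2(FPKM + 1) of each gene in each library, centred on the gene's mean over the 16 libraries, as a colour scale. asp-10 runs from -2.46 in EMBRYO CNT replicate 1 to 1.90 in L4 TM replicate 1, and asp-6 from -2.12 in L4 TM replicate 4 to 1.402 in EMBRYO TM replicate 3.

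Beyond the 10, 3 other genes with an asp symbol had a mean of at least 1 FPKM. asp-13 was at 27.1 ± 3.74 FPKM in EMBRYO CNT and 112 ± 24.5 FPKM with TM (SD, n = 4), a log2 difference of 1.99, and asp-17 at 1.84 ± 0.709 and 5.51 ± 1.117 FPKM, a log2 difference of 1.21. Both were past both thresholds in the EMBRYO comparison (limma adjusted p = 1.52e-05 and 9.53e-04), asp-17 not with a pseudocount of 5 (0.62). Scaled to the intestine markers, neither was past both thresholds, with asp-13 at 0.97 and asp-17 at 0.44 (limma adjusted p = 0.0803). asp-11 had a log2 difference of 0.93 and passed the adjusted p alone, from 10 to 23 reads in the controls and 24 to 47 in the treated libraries. It passed both thresholds with a pseudocount of 0.1 (1.42), TPM rescaling (1.01) and voom (1.35), and without EMBRYO CNT replicate 4 (1.09) or EMBRYO TM replicate 2 (1.01), while relative to the intestine markers it was at 0.28 (limma adjusted p = 0.223). In the L4 comparison none of the 3 passed both thresholds by limma or voom, with asp-11 alone under an unadjusted p of 0.05, at -0.73.

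Other lysosomal proteases divided in the EMBRYO comparison. Of 14 cysteine proteases and inhibitors, 6 were higher and 4 lower past both thresholds, with a median log2 difference of 0.50. On the scale of the intestine markers 1 was higher and 6 lower, with a median of -0.52. cpr-4, a cathepsin B-like protease, rose from 168 ± 10.4 to 1801 ± 251 FPKM (SD, n = 4), a log2 difference of 3.41. Among those lower were cpi-1, a cystatin-type inhibitor, at -1.83, and the proteases tag-196, of the cathepsin F type, at -1.79 and cpr-2 at -1.66. In the L4 comparison 2 of 13 were lower, cpr-1 at -2.32 and cpr-4 at -2.01, and none higher by limma (none at an unadjusted p under 0.05, and none by voom), with a median of -0.53. cpr-1 and cpr-4 were thus called in opposite directions at the 2 stages, as lipl-1 and asp-8 were.

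Of 30 lysosomal hydrolases other than proteases, 8 were higher and 4 lower past both thresholds in EMBRYO TM, with a median of 0.55. With a pseudocount of 5 there were 7 higher and 1 lower, and relative to the intestine markers 3 higher and 8 lower, with a median of -0.41. The largest increases were in pho-1, which is also among the intestine markers, at 3.45, lipl-1 at 3.39 and gba-4, a glucocerebrosidase, at 2.27. In L4 TM 4 of 29 were lower, among them lipl-2 at -1.76 and lipl-1 at -1.70, and none was higher by limma (5 at an unadjusted p under 0.05, and none by voom past both thresholds), with a median of -0.36. Of 33 genes of the lysosome membrane and its acidification, 4 were higher in EMBRYO TM and none lower by limma (4 lower at an unadjusted p under 0.05, and none by voom), with a median of 0.39, while 2 were higher by voom. Relative to the intestine markers 7 were lower and none higher by limma (27 lower and 1 higher at an unadjusted p under 0.05, and voom was not run on that scale), with a median of -0.63. vha-6, the largest increase of this list at 1.54 in EMBRYO TM, is also among the intestine markers. In L4 TM none of 31 passed both thresholds by limma or voom, with 12 higher and 4 lower at an unadjusted p under 0.05, and the median was 0.17.

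Among 10 regulators of lysosomal and intestinal genes, 1 was higher and 1 lower in EMBRYO TM, and 1 and 6 relative to the intestine markers. That scale moves the median of all genes by -0.90. mxl-3, a repressor of lysosomal lipase genes in fed worms, rose from 1.11 ± 0.256 to 8.17 ± 1.00 FPKM (SD, n = 4), a log2 difference of 2.12. hlh-11, which represses the fat lipase gene atgl-1, fell by 1.13 on the log2 scale. hlh-30, the worm TFEB and an activator of lysosomal genes, had a log2 difference of -0.51 in EMBRYO TM (limma adjusted p = 0.0790) and -0.49 in L4 TM (limma adjusted p = 0.0516).

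Some deposited positions limit single values. The deposited span of asp-2 is 5449 bases, against 1658 bases in the WBcel235 annotation, so its counted length of 2391 bases may hold sequence outside that gene model. The counted length of asp-1, 1375 bases, exceeds its span of 1298 bases, as for 366 genes of the table. asp-14 overlaps fah-1 by 90 bases on the same strand, asp-4 overlaps R12H7.4 by 43 bases and asp-10 overlaps C15C8.7 by 11 bases on the opposite strand, and whether the libraries kept strand is not settled by the labels.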

How the data were processed

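Per the labels and the methods of the study, the authors aligned reads with HISAT2 2.0.5 and counted them with featureCounts 1.5.0-p3, and they deposited FPKM values per gene and library. The genome build was not given in the sources used here, nor was the treatment of reads matching several genes. The deposited table also holds 4 columns of the authors' group means, which were not used. FPKM values were whole multiples of 1 read within 0.01 reads for 100% of values, which gave the reads on genes. Precision follows these reads, and PCR duplicates cannot be separated.

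Symbols came from WBcel235 for 43468 genes and a RefSeq gene table for 1860, and 1261 had none. The 10 genes and the gene lists were chosen with earlier results of these data known. Models were fitted with limma 3.58.1 in R 4.3.3 on log2(FPKM + 1) with a mean-variance trend, two-sided, for genes with a mean of at least 1 FPKM, over 8 libraries per comparison or all 16 for the interaction. Separate plates are stated for the libraries, so p-values measure the spread between plates. The test was tested on simulated data. Named genes were the 10 members, other asp genes at a mean of at least 1 FPKM, up to 3 called genes per list and direction, the 3 nearest profiles, and hsp-4. elt-2, elt-7 and hlh-30 were named after their values were seen. Alternatives were pseudocounts of 0.1 and 5, no filter or a mean of at least 5 FPKM, TPM or median-ratio rescaling, a test of protein-coding genes only, leaving out any 1 library, a block for the replicate number, 1 model of all 16 libraries, voom on recovered reads, and, chosen after seeing the data, scaling to the intestine markers. Figures used Python 3.11.15, pandas 2.3.3 and matplotlib 3.10.9. No sequence is shown, since no sequence table was used here.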

Additional observations from a re-analysis of the deposited data

Results flagged for a closer look

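Of 52 combinations of an asp gene and a group of 4 libraries, 4 held a library far from the other 3, where chance gives about 1 in 20. In L4 CNT, replicate 3 had the highest asp-4 at 403.6 FPKM, with the others between 385.7 and 387.1 FPKM. L4 CNT replicate 2 had the lowest asp-5, at 1118.4 FPKM against 1224.1 to 1236.3 FPKM, and the lowest asp-6, at 2753.1 FPKM against 3210.9 to 3297.2 FPKM. L4 TM replicate 4 had the lowest asp-6, at 833.2 FPKM against 1239.0 to 1283.0 FPKM. The last 2 libraries are also those with the lowest epidermis marker sums, 522 and 332 FPKM, and the part of this in their asp-6 levels was not tested.

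The TM effect differed between the stages by the interaction test for 12 of the 13 asp genes tested, each with a limma adjusted p under 0.05 and a value above 0, where 14.8% of all genes were above 0 and 14.4% below by adjusted p. As the EMBRYO minus the L4 effect on the log2 scale, the values were 4.15 for asp-12, 2.79 for asp-8, 2.28 for asp-2, 1.88 for asp-3, 1.86 for asp-13, 1.73 for asp-6, 1.67 for asp-11, 1.30 for asp-1, 1.21 for asp-17, 1.14 for asp-5, 0.84 for asp-10 and 0.77 for asp-14. Relative to the intestine markers asp-1 (limma adjusted p = 0.821), asp-5 (0.581), asp-6 (0.0744) and asp-17 (0.301) no longer passed, and asp-10 and asp-14 turned sign, to -0.30 and -0.46. On this scale the median of all genes moves by -1.11.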

How the results depend on the processing

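Relative to the intestine markers, chosen after seeing the data, 2 members were higher and 3 lower in the EMBRYO comparison, 1 was lower in the L4 comparison, 5 were higher and 2 lower in EMBRYO CNT against L4 CNT, and 3 were higher in the interaction. This scale moves the median of all genes by -0.90, 0.17, 0.71 and -1.11 in these comparisons. TPM and median-ratio rescaling move that of the controls by 0.28 and -0.15. Under median-ratio rescaling, 1 member was higher in the control comparison.

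Leaving out 1 library at a time, 5 members were higher in the EMBRYO comparison and 1 in the L4 comparison, 2 to 4 were lower in L4, 1 to 2 were higher in the control comparison, 1 of them without L4 CNT replicate 2, and 7 were higher in the interaction.

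Signs turned, relative to the intestine markers, for asp-1 (-0.74), asp-4 (-1.01), asp-5 (-1.02) and asp-6 (-0.77) in EMBRYO, asp-11 (0.16) and asp-17 (0.25) in the controls, and asp-4 (-0.85), asp-5 (-0.0904), asp-10 (-0.30) and asp-14 (-0.46) in the interaction. Differences near 0 turned sign in asp-4 in EMBRYO under TPM (-0.0447) and voom (-0.15), with -0.0356 to 0.1045 when 1 library was left out. asp-5 did so under TPM (-0.0474) and voom (-0.15), with -0.0585 to 0.17, and asp-14 with -0.1274 to 0.0491, the highest without EMBRYO TM replicate 4. In L4, asp-17 did so with a pseudocount of 5 (-0.0024), median-ratio rescaling (-0.0209) and voom (-0.0555), with -0.15 to 0.0782 when 1 library was left out. In the controls asp-3 did so under median-ratio rescaling (-0.074). The cause was not tested.

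The replicate numbers did not pair the libraries (correlations of same-numbered deviations from -0.33 to 0.227). With the replicate number as a block, the counts of members stayed 5 higher in EMBRYO, 1 higher and 3 lower in L4, and 7 higher in the interaction, and no call of a member changed. Over all genes and planned settings, 427 to 976 were higher and 440 to 2314 lower in EMBRYO, 27 to 111 and 180 to 669 in L4, 1395 to 5056 and 1225 to 2744 in the controls, and 515 to 1110 and 237 to 810 in the interaction. In the controls the split was 3713 higher and 2060 lower, and 4965 and 1342 under TPM rescaling. Depth limits asp-8, with 90 reads in its lowest library, and asp-11, listed at 0 reads in L4 TM replicate 4, the library with the fewest detected genes.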
